A study of Mus musculus with 14 samples.

Results

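Lysosomes break down what a macrophage engulfs and what it recycles from its own cytoplasm. Their lumen holds acid hydrolases (proteases, glycosidases and lipases), their membrane holds heavily glycosylated proteins and transporters, and a proton pump, the V-ATPase, keeps the lumen acidic through a membrane sector, V0, and a cytosolic ATP-hydrolysing sector, V1. Many of these genes carry the CLEAR element, an E-box to which the transcription factor TFEB and its relatives TFE3 and MITF are known to bind. The 41 genes described here are 10 proteases, 9 glycosidases, 5 genes of lipid handling and cofactors, 5 membrane proteins, Tfeb, and 11 genes of the V-ATPase. They were chosen by name as a functional group and matched by gene identifier among 21761 genes. All 41 were found in the exon and the intron counts, and all 41 passed the filters on low counts.

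The cells were macrophages grown from bone marrow of FVB/hsd mice with L929-conditioned medium, given a retroviral short hairpin RNA and kept under puromycin. The knockdown libraries came from cells with a Wdr82 hairpin, 1 library with hairpin sh1137 and 1 with hairpin sh830, and the controls were 2 libraries from cells with a scrambled hairpin, scrambled 1 and scrambled 2. All 4 were ribosomal RNA-depleted total RNA of cells that had received no lipopolysaccharide, and 10 of the 14 samples of the series (4-thiouridine-labelled RNA, Menin knockdown or lipopolysaccharide treatment) were not analysed here. Wdr82 is shared by the SET1 complexes, which methylate histone H3, and the PTW/PP1 phosphatase complex, and the series addresses early termination of transcription at regulatory elements. Mouse age is not given, each hairpin is 1 library, and nothing in the labels says that the libraries came from separate animals or cultures. P-values therefore measure only spread between these libraries, not between animals or cultures.

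Gene exons took 34787556 counts with sh1137, 43372731 with sh830, 40074419 in scrambled 1 and 42635790 in scrambled 2. Introns took 44.2% of exon plus intron counts with sh1137 and 15.2% with sh830, against 40.4% in scrambled 1 and 14.6% in scrambled 2, so each group holds an intron-rich and an intron-poor library. The fits used here carry a term for that split (the library term), which an earlier analysis chose after seeing these data and which leaves 1 residual degree of freedom. The p-values thus measure the spread that this term leaves, with the variance pooled in part over all genes. For Ctsl exons the standard error of the log2 fold change was 0.090 with the term and 0.22 with the group term alone. Wdr82 itself (identifier 77305) had 25.1 and 40.7 CPM (counts scaled to library size) over its exons with sh1137 and sh830, against 100.4 and 144 CPM in scrambled 1 and 2. It fell by 1.91 ± 0.094 (log2, ± SE; edgeR's quasi-likelihood test, Benjamini-Hochberg adjusted p = 0.0021; -1.89, adjusted p = 0.44 with the group term alone). The 10 macrophage markers summed to 9190 and 15800 CPM in the knockdown libraries and 10600 and 12800 CPM in the scrambled ones. Lyz2 was the largest part of each sum, at 3650 and 9210 CPM and 4030 and 5920 CPM. Csf1r, the receptor for macrophage colony-stimulating factor, had 2210 and 2310 CPM and 2690 and 2190 CPM. In bulk RNA, fewer cells of a type and less RNA per cell cannot be told apart.

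Of the 41 genes, 35 have a RefSeq promoter window (assembly GRCm38.p6, 250 bases before to 50 bases after the annotated start, the counts being on mm9). The 6-letter core CACGTG, which reads the same on both strands, occurred in 13 of the 35 windows (37.1%), against 11.3% of 10862 windows of genes tested on exon counts. Its extension TCACGTGA, which contains the core, occurred in 6 windows (17.1%), against 2.08%. A further G before and C after this extension occurred in 0 windows, against 0.737%. The CLEAR element was itself described from promoters of lysosomal genes, so these shares describe the genes and are not independent evidence. The 2 windows below are shown whole because Ctsl and Glb1 are the genes whose exon counts rose, both with the core in capitals. They lie at chr13:64370471-64370770 on the minus strand and chr9:114400828-114401127 on the plus strand, and the core starts at positions -236 and -48, counted from 0 at the annotated first base.
Ctsl: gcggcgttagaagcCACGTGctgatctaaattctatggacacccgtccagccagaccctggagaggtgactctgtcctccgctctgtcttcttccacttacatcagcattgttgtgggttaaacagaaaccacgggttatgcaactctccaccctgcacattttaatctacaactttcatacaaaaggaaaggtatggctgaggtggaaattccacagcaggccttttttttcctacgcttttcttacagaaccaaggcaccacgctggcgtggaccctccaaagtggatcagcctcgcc
Glb1: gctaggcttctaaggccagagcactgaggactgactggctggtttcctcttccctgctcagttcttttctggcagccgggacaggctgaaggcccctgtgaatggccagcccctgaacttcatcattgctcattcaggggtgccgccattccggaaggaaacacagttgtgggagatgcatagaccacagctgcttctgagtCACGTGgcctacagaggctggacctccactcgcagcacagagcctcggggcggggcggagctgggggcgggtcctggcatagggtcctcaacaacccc

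The next stretches, read on the gene's strand, surround each TCACGTGA in the 6 windows that hold it, and are shown to compare the letters next to the core (capitals). Ctsa and Gla each hold a pair. The core starts at -12 and 5 in Ctsa, at -98 in Ctsd, at -45 in Mcoln1, at -3 in Atp6v0d1, at -131 in Atp6v1a and at -227 and -194 in Gla.
Ctsa: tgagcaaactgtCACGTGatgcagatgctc
Ctsa: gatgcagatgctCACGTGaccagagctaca
Ctsd: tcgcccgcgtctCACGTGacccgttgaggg
Mcoln1: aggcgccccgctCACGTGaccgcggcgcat
Atp6v0d1: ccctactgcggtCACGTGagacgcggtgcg
Atp6v1a: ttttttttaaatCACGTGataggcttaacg
Gla: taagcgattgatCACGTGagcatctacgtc
Gla: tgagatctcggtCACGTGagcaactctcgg

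By exon level scaled to exon length and library size (RPKM, computed here from the counts), these genes spanned a wide range. Ctsd, an aspartic protease, was highest at 5708 ± 435 RPKM in the knockdown libraries and 4536 ± 709 RPKM in the scrambled ones (SD, n = 2 each). Ctsb, a cysteine protease, had 2393 ± 225 and 2293 ± 310 RPKM, and Psap, the precursor of the saposins that assist sphingolipid breakdown, had 2416 ± 473 and 2056 ± 33.9 RPKM. Ctsb and Psap did not differ beyond their spread in the knockdown libraries. At the low end stood Manba (17.9 ± 1.94 and 17.6 ± 0.125 RPKM), Ctsh (12.7 ± 3.33 and 13.4 ± 1.09 RPKM) and Tfeb (8.59 ± 0.71 and 9.92 ± 1.03 RPKM), and 22 of the 41 averaged above 100 RPKM. The 41 genes together took 5.49% and 4.55% of gene exon counts with sh1137 and sh830, against 4.12% and 4.42% in scrambled 1 and 2. Most of that was proteases (3.05% and 2.50%, against 2.26% and 2.48%).

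**Figure D1:**
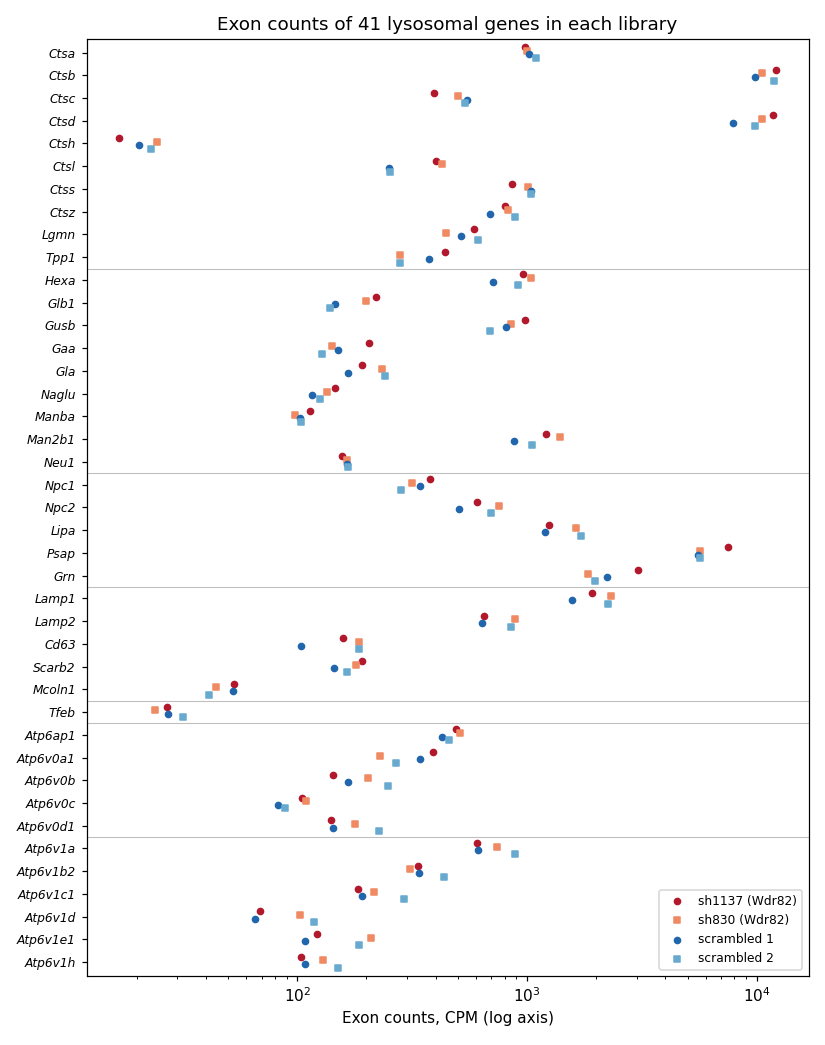
Exon counts of each lysosomal gene in CPM (log axis) in the 4 libraries, circles for the intron-rich and squares for the intron-poor libraries, grouped by role with grey lines between roles. For Ctsl and Glb1 both knockdown points (red) lie right of both scrambled points (blue).

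Few of the lysosomal genes passed the test in their exon counts, and the share that rose was near that of all genes. Of 41, 2 rose and 0 fell past an adjusted p of 0.05, against 6.06% of 13884 genes that rose and 7.92% that fell. Fitted log2 fold changes ran from -0.29 (Ctsc) to 0.71 (Ctsl), 25 lay above 0 and 16 below, and the median was 0.065, against -0.014 over all genes tested. Without scrambled 1 the median of the 41 was -0.082, and without scrambled 2 it was 0.24. Among the 2420 genes of at least 100 CPM, 4.55% rose, 13.5% fell and the median was -0.10. The 95% interval of the change lay within ±1 for 41 of the 41 genes and within ±0.5 for 23. With the group term alone, edgeR passed 0 of the 41 (and 0% of all genes) after adjustment and 2 at an unadjusted p under 0.05, both higher (3.15% of genes were higher by that rule), DESeq2 passed 0 (1.27% of genes), and 26 and 0 intervals lay within ±1 and ±0.5. In 25 of 41 genes the 2 scrambled libraries differed by more than the fitted change. The knockdown libraries lay above both scrambled libraries for 11 genes and below both for 5. Of all genes tested, 15.7% lay above both and another 15.7% below both.

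**Figure D2:**
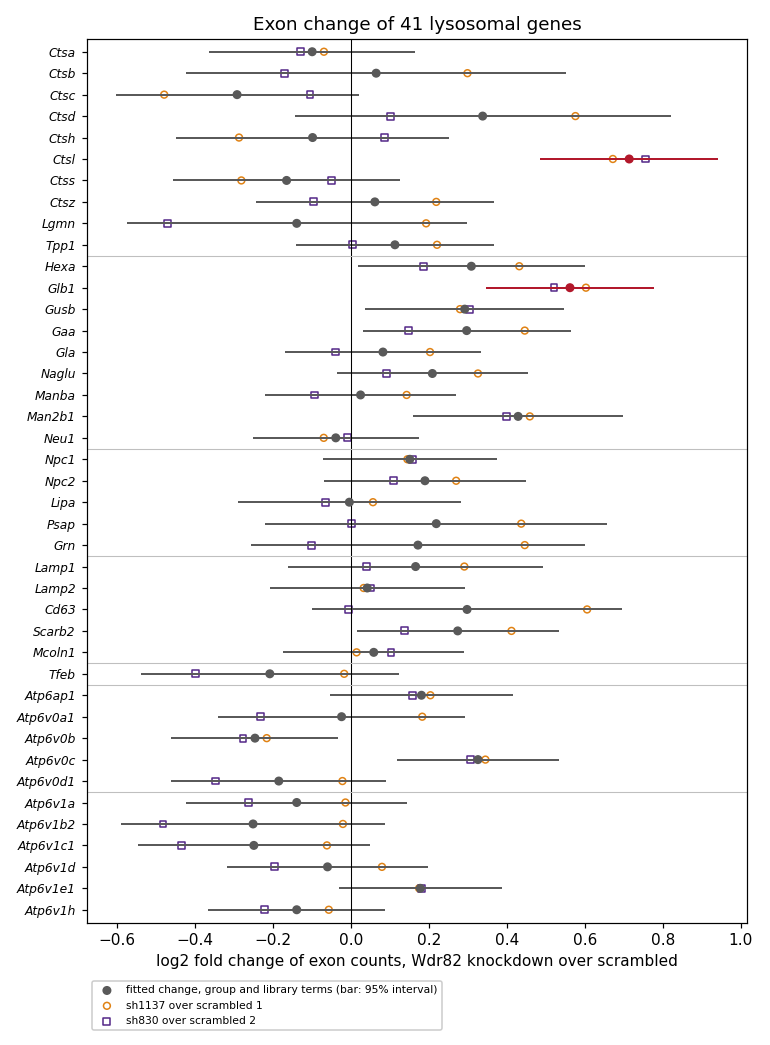
Fitted log2 fold change of exon counts, Wdr82 knockdown over scrambled, with its 95% interval (filled circles and bars, red where past the threshold), beside sh1137 over scrambled 1 and sh830 over scrambled 2 (open symbols). The interval of Ctsl runs from 0.49 to 0.94 and that of Glb1 from 0.35 to 0.78, and both pairs of each gene lie right of 0.

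Of the 10 proteases, 1 rose and 0 fell. Ctsl (identifier 13039, mm9 chr13:64464522-64471614, minus strand) encodes cathepsin L, a cysteine endopeptidase. It had 400.5 and 429 CPM with sh1137 and sh830, against 252 and 254 CPM in scrambled 1 and 2. Both knockdown libraries were well above both scrambled ones, which were almost equal. The means were 415 ± 20.1 and 253 ± 1.80 CPM (SD, n = 2 each), and the log2 fold change was 0.71 ± 0.090 (adjusted p = 0.013 in edgeR; 0.72, adjusted p = 0.58 with the group term alone). Leaving out any 1 library kept the value between 0.68 and 0.76.

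The gene with the most negative fitted change, Ctsc, encodes a dipeptidyl peptidase that activates granule serine proteases. Ctsc had 393 and 501 CPM in the knockdown libraries, against 547 and 539 CPM in the scrambled ones, which did not pass (log2 fold change -0.29 ± 0.12, edgeR, adjusted p = 0.16). Its groups did not overlap, and sh1137 was the lowest library. The value was -0.12 without sh1137 and -0.46 without sh830. The other 8 proteases lay between -0.17 (Ctss) and 0.34 (Ctsd), and the median of the 10 was -0.018. For Ctsd, the 2 within-type comparisons were 0.58 (sh1137 over scrambled 1) and 0.10 (sh830 over scrambled 2), and for Lgmn, an asparagine-specific endopeptidase, they were 0.19 and -0.47. Exons of Ctsa share 13.5% of their length with Pltp on the other strand, a gene that rose by 0.61. They share 8.82% with Neurl2 (0.64, not past the threshold), and exons of Ctsb share 16.3% with Fdft1 (-0.75, not past the threshold). Whether counting used the strand is not stated, so the values of Ctsa and Ctsb could hold reads of those neighbours. The neighbours had far lower counts. Pltp had 29.6 to 45.6 CPM and Neurl2 3.35 to 5.61 CPM, against 977 CPM or more for Ctsa. Fdft1 had 18.2 to 41.2 CPM, against 9827 CPM or more for Ctsb.

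The glycosidases had the highest median of the roles, 0.29, with 8 of 9 above 0 and 1 past the threshold. Glb1 (identifier 12091, mm9 chr9:114310213-114383495, plus strand) encodes beta-galactosidase, which removes terminal galactose from gangliosides and keratan sulfate. It had 221 and 199 CPM in the knockdown libraries, against 146 and 139 CPM in the scrambled ones. Every knockdown value was above every scrambled value. The means were 210.0 ± 15.9 and 142 ± 5.13 CPM, and the log2 fold change was 0.56 ± 0.085 (adjusted p = 0.018 in edgeR; 0.56, adjusted p = 0.70 with the group term alone). Without 1 library it was between 0.48 and 0.65. Tmppe shares 2.44% of the Glb1 exon length on the same strand and had a log2 fold change of 0.10.

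Man2b1, the lysosomal alpha-mannosidase, had 1206 and 1395 CPM in the knockdown libraries, against 877 and 1057 CPM in the scrambled ones. The groups did not overlap, and sh830 was highest. Its change of 0.43 ± 0.11 on the log2 scale missed the threshold (edgeR, adjusted p = 0.0502) and passed with DESeq2 (0.0047), without a filter, with a stricter filter and without scaling factors (adjusted p from 0.0296 to 0.0442 for these 3 edgeR fits). It also missed the threshold with RLE size factors (0.0511), with the group term alone (0.91 in edgeR and 1.0 in DESeq2) and with the crossed split, which sets scrambled 1 beside sh830 (1.0), and the value was 0.29 without scrambled 1. Hexa and Gusb, described with the introns, had 0.31 and 0.29, and Gaa, which degrades glycogen, had 0.30. The Hexa exon change was 0.12 without scrambled 1 and 0.52 without scrambled 2, and that of Gusb was 0.18 without sh1137. Naglu, which acts on heparan sulfate, had 0.21, Gla 0.082, Manba 0.025 and the sialidase Neu1 -0.039. None of these 7 passed.

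No gene of lipid handling or of the membrane proteins passed the test. Npc2, a soluble cholesterol carrier, had 608 and 755 CPM in the knockdown libraries, against 504 and 700.2 CPM in the scrambled ones (0.19 ± 0.10, adjusted p = 0.25 in edgeR). Npc1, the membrane protein that takes cholesterol from Npc2, had 380 and 317 CPM, against 343 and 284 CPM (0.15 ± 0.088, adjusted p = 0.28; 0.0078 without sh1137, 0.051 without scrambled 2, 0.28 without scrambled 1 and 0.29 without sh830). In both genes the groups overlapped and the values paired by library type. Psap had 0.22, Grn, which encodes progranulin, 0.17 and the acid lipase gene Lipa -0.0040. Of the membrane proteins, Scarb2, a receptor that carries glucocerebrosidase to lysosomes, had 192 and 181 CPM, against 144 and 164 CPM (0.27 ± 0.10, adjusted p = 0.12; 0.17 without scrambled 1). The tetraspanin Cd63 had 158 and 185 CPM, against 104 and 186 CPM (0.30 ± 0.16, adjusted p = 0.24). Scarb2 did not overlap between groups, whereas Cd63 was low in scrambled 1 and alike in the other libraries. Lamp1 (0.17), Lamp2 (0.042) and the calcium channel gene Mcoln1 (0.059) did not pass.

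The 11 V-ATPase genes had a median of -0.14, against 0.13 for the other 30, and none passed in either direction. Over the 2420 genes of at least 100 CPM the median was -0.10, and over all genes tested it was -0.014. Atp6v0c, which encodes the proteolipid of the proton-conducting ring, had 105 and 110 CPM in the knockdown libraries, against 82.6 and 88.6 CPM in the scrambled ones (0.33 ± 0.082, adjusted p = 0.052 in edgeR). Its groups did not overlap, and it passed without scaling factors and with a stricter filter (adjusted p = 0.0396 and 0.0463). It did not pass with RLE size factors (0.062), without a filter (0.0651), in DESeq2 (0.113) or with the group term alone (0.899 in edgeR). Atp6v0b, another ring subunit, had 144 and 204 CPM, against 167 and 248 CPM (-0.25 ± 0.084, adjusted p = 0.10). Each knockdown library was below the scrambled library of its own type, and the groups overlapped.

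Of the 6 genes of the V1 sector, 0 passed. Atp6v1e1, a stalk subunit, had 122 and 210.0 CPM in the knockdown libraries, against 108 and 185 CPM in the scrambled ones (0.18 ± 0.082, adjusted p = 0.19 in edgeR). Atp6v1c1, another stalk subunit, had 184 and 216 CPM, against 192 and 292 CPM (-0.25 ± 0.12, adjusted p = 0.20). In both, the intron-rich libraries were lower than the intron-poor ones. Atp6v1b2, a subunit of the ATP-hydrolysing head, had 334 and 311 CPM, against 339 and 434 CPM, with both knockdown libraries below both scrambled ones (-0.25 ± 0.13, adjusted p = 0.24). Scrambled 1 was below scrambled 2 in 10 of the 11 V-ATPase genes, with a median log2 difference of -0.54, and sh830 over scrambled 2 had a median of -0.23 while sh1137 over scrambled 1 had -0.014. The accessory gene Atp6ap1 had 0.18.

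Intron counts, which come largely from unspliced RNA, passed the test in 1 of 41 genes, which fell, against 6.08% of 12405 genes that rose and 4.01% that fell. The median of the 41 was 0.0038, against -0.012 over all genes. Ctss (identifier 13040, mm9 chr3:95330708-95360325, plus strand) encodes cathepsin S, which trims the invariant chain of MHC class II. Its introns had 109 and 133 CPM in the knockdown libraries, against 167 and 214 CPM in the scrambled ones, with no overlap. The log2 fold change was -0.65 ± 0.089 (adjusted p = 0.010 in edgeR; -0.66, adjusted p = 0.89 with the group term alone), and it lay between -0.81 and -0.48 without 1 library. Ctss exons had 860 and 1009 CPM, against 1045 and 1044 CPM, which did not pass (-0.17 ± 0.11, adjusted p = 0.36). Knockdown libraries lay above both scrambled libraries in the introns of 6 genes and below both in 7, against 17.0% and 14.2% of all genes.

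Set against the exons of the same gene, introns had the lower change in most of these genes. Of 41, 31 had an intron change below the exon change and 10 above, 5 passed the interaction test as lower and 1 as higher, against 1.45% and 2.18% of 11772 genes. In the interaction test the variance was pooled almost wholly over genes, so its p-values hold little of a gene's own spread. The median interaction was -0.12, against 0.013 over all genes. That shift depends on scaling introns and exons each by factors of their own: with 1 total per library the median of all genes was 0.13 and that of the 41 genes -0.0080, and 1 gene passed, as higher, and 0 as lower. With the group term alone 0 of the 41 passed (0% of genes in edgeR and in DESeq2), and 0 had an unadjusted p under 0.05 in edgeR, against 0.586% of genes. DESeq2 with the library term passed 3, all lower, against 0.246% of genes that were lower. Among the 20 genes with under 10% of their counts in introns the median was -0.20 and 4 were lower, whereas the 1646 tested genes of such a share had a median of 0.025, with 51 higher and 37 lower.

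**Figure D3:**
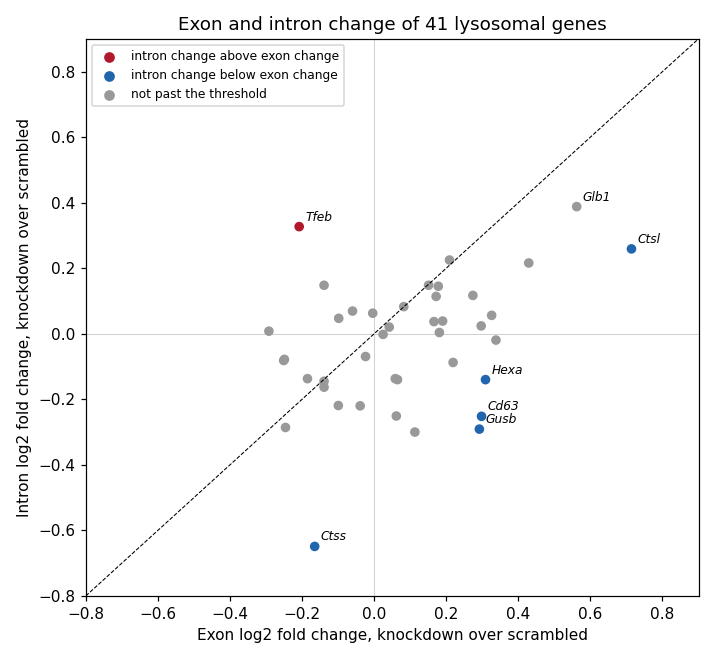
Intron against exon log2 fold change of each lysosomal gene, Wdr82 knockdown over scrambled; the dashed line marks equal change. Tfeb (red) lies above the line and Ctsl, Ctss, Hexa, Gusb and Cd63 (blue) lie below it past the interaction threshold.

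Tfeb was the gene on the higher side, and it stayed past the threshold with 1 total per library. Tfeb (identifier 21425, mm9 chr17:47873986-47929365, plus strand) had 27.2 and 24.2 exon CPM in the knockdown libraries, against 27.5 and 31.8 CPM in the scrambled ones. Its introns had 188.5 and 156 CPM, against 125 and 151 CPM. Exons were lower and introns higher in both knockdown libraries than in either scrambled one, by narrow margins in scrambled 1 for exons and scrambled 2 for introns. The intron share of its counts was 81.7% (95% exact binomial interval 80.7 to 82.7) with sh1137 and 58.1% (56.2 to 60.1) with sh830, against 72.5% (71.1 to 73.8) in scrambled 1 and 49.3% (47.3 to 51.3) in scrambled 2. These intervals cover counting error only. The interaction was 0.53 ± 0.12 (adjusted p = 0.0011 in edgeR; 0.64, adjusted p = 0.00094 with 1 total per library), between 0.49 and 0.56 without 1 library, and did not pass in DESeq2 (adjusted p = 0.21). The exon change (-0.21, adjusted p = 0.31) and the intron change (0.33, adjusted p = 0.19) did not pass on their own.

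Of the 5 genes on the lower side, Ctsl passed on its own in exons and Ctss in introns. In Gusb, Hexa and Cd63 neither the exon nor the intron change passed on its own, so which part moved is not shown for them. Gusb (identifier 110006, mm9 chr5:130464891-130478698), the beta-glucuronidase, had 979 and 850 exon CPM in the knockdown libraries, against 807 and 688 CPM in the scrambled ones, and 107 and 96.7 intron CPM, against 115 and 136 CPM. Exons were higher and introns lower in both knockdown libraries (interaction -0.58 ± 0.12, adjusted p = 0.0001 in edgeR). Hexa (identifier 15211, mm9 chr9:59387474-59412912), the alpha subunit of beta-hexosaminidase, had 965 and 1045 exon CPM, against 715 and 918 CPM, and 366 and 283 intron CPM, against 380 and 332 CPM (-0.45 ± 0.11, adjusted p = 0.0047). That value was -0.15 without scrambled 1, -0.22 without sh830 and -0.77 without scrambled 2. Ctss had -0.48 ± 0.12 (adjusted p = 0.0027), its introns being the lower part.

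Ctsl introns had 26.6 and 44.1 CPM in the knockdown libraries, against 18.9 and 43.8 CPM in the scrambled ones, and thus moved less than its exons (-0.45 ± 0.13, adjusted p = 0.016 in edgeR). The Ctsl value changed with single libraries: it was 0.096 without scrambled 2, -0.13 without sh1137, -0.79 without sh830 and -1.04 without scrambled 1. Cd63 (identifier 12512, mm9 chr10:128345975-128349874) had only 159 and 79 intron counts with sh1137 and sh830 and 143 and 114 in scrambled 1 and 2 (-0.56 ± 0.17, adjusted p = 0.028). With 1 total per library none of the 5 passed (adjusted p from 0.053 for Gusb to 0.23 for Ctsl). In DESeq2 with the library term Gusb, Hexa and Ctss passed and Ctsl and Cd63 did not (adjusted p = 0.17 for both).

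The authors' count table also holds 1107 regions listed apart from the genes, some of which overlap exons, and 12 of them lie within 5 kb of the span of a lysosomal gene, beside 12 of the 41 genes; the 5 kb limit was set after values were seen. All 12 had a log2 fold change above 0, from 0.28 to 4.14 with a median of 1.18, and 6 rose, while 54.7% of all 1070 regions tested rose and 0 fell. The source given for the regions is a hairpin against vector comparison in SICER, so their direction is not independent evidence. The largest change was at the region named for the start of Tubb1 (mm9 chr2:174264500-174276499), which lies 6 bases upstream of Ctsz, the cathepsin Z gene. It had 752 and 442 counts with sh1137 and sh830, against 35 and 32 in scrambled 1 and 2 (4.14 ± 0.29, adjusted p = 0.0046 in edgeR). Both knockdown libraries were far above both scrambled ones.

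The region at the start of Golga5 (mm9 chr12:103678500-103707999), 592 bases upstream of Lgmn, had 1845 and 437 counts in the knockdown libraries, against 102 and 123 in the scrambled ones (3.04 ± 0.61, adjusted p = 0.032 in edgeR; 1.88 without sh1137). The region 659 bases upstream of Atp6v1c1 (mm9 chr15:38574500-38590999) had 438 and 108 counts, against 37 and 27 (2.87 ± 0.49, adjusted p = 0.022; 1.68 without sh1137). In both, sh1137 was several times higher than sh830, and sh830 was above both scrambled libraries. The region 224 bases upstream of Ctsd, named for Syt8, had 6155 and 1689 counts, against 2248 and 952 (1.17 ± 0.20, adjusted p = 0.023). Here the groups overlapped, and the value was 0.014 without sh1137 and 2.08 without scrambled 1 or sh830. The regions upstream of Atp6v0c (1.19) and downstream of Npc2 (0.94; 0.17 without sh1137, 0.57 without scrambled 2, 1.51 without sh830 and 1.62 without scrambled 1) also rose.

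Exons of the 12 genes beside these regions did not pass the test in the fit with group and library terms. Atp6v0c came nearest (0.33, edgeR, adjusted p = 0.052) and passed under some alternatives, as given above. For Ctsz the exon change was 0.062 (edgeR, adjusted p = 0.76), Lgmn -0.14, Atp6v1c1 -0.25 and Ctsd 0.34. The regions at Psap (2.01, adjusted p = 0.085), upstream of Ctsa (1.26, 0.057) and at Hexa (1.01, 0.063) did not pass, nor did those at Atp6v0a1, Grn and the end of Lgmn (0.68, 0.56 and 0.28). Some of these overlap the gene span itself (Psap, Hexa, Grn, Atp6v0a1 and the end of Lgmn), so they can share reads with it.

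**Figure D4:**
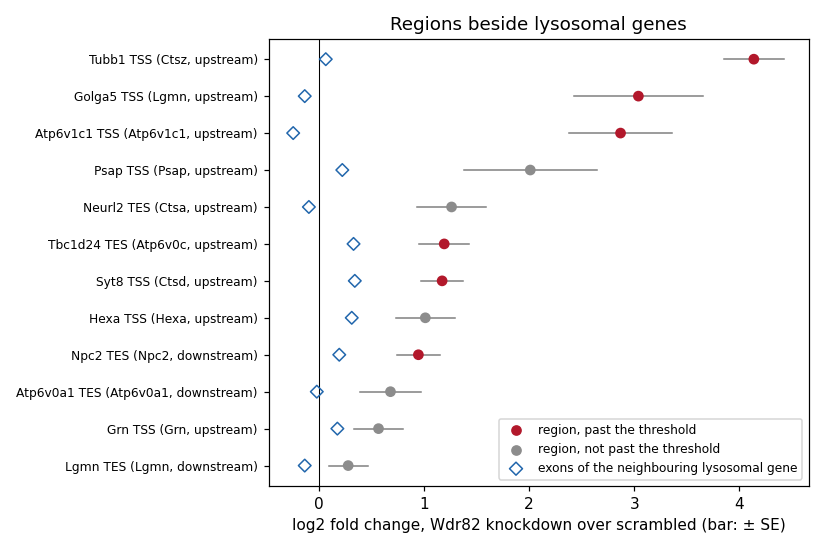
Log2 fold change (± SE) of the 12 regions beside lysosomal genes, Wdr82 knockdown over scrambled, labelled by region, neighbouring gene and side, with the exon change of the neighbouring gene as a diamond. The regions reach 4.14, whereas the diamonds stay between -0.25 and 0.34.

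The other genes of the pathway, taken from lists of known function, moved in both directions. With the group term alone edgeR passed 0 of 13884 genes, so the calls in these lists depend on the library term. Of 33 other lysosomal hydrolases tested, 7 rose and 2 fell (median 0.14), against 6.06% of all genes tested that rose and 7.92% that fell (median -0.014). Ctsk, a collagen-degrading cathepsin typical of osteoclasts, had 17.3 and 7.11 CPM in the knockdown libraries, against 1.54 and 1.88 CPM in the scrambled ones (2.71 ± 0.42, adjusted p = 0.019 in edgeR). Sgsh, a heparan sulfamidase, had 156 and 104 CPM, against 81.3 and 66.2 CPM (0.80 ± 0.10, adjusted p = 0.013; 0.50 without sh1137). In both genes each knockdown library was above both scrambled ones. Among the others that rose were Idua, Galc and Gm2a, by 0.35 to 0.69. Dnase2a, the acid DNase, had 97.2 and 96.2 CPM, against 138 and 147 CPM (-0.56 ± 0.085, adjusted p = 0.018), and Arsb, an arylsulfatase, had 296 and 238 CPM, against 386 and 316 CPM (-0.39 ± 0.087, adjusted p = 0.039; -0.25 without scrambled 1 and -0.23 without sh830).

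Of 24 other lysosomal membrane proteins, 3 rose and 1 fell (median 0.18), against 6.06% of all genes that rose and 7.92% that fell. Cd68, a scavenger protein of the LAMP family and a macrophage marker, had 342 and 491 CPM in the knockdown libraries, against 655 and 943 CPM in the scrambled ones (-0.94 ± 0.096, adjusted p = 0.0084 in edgeR; -0.63 without scrambled 2). The peptide transporter gene Abcb9 had 11.3 and 5.99 CPM, against 4.48 and 3.29 CPM. Abcb9 rose (1.11 ± 0.23, adjusted p = 0.034 in edgeR, and 0.62 without sh1137), as did Laptm5 (0.55). The amino acid transporter gene Slc36a1 had 163 and 66.2 CPM, against 93.3 and 49.6 CPM (0.61 ± 0.12, adjusted p = 0.029), but groups overlapped and the value was -0.12 without sh1137, 0.33 without scrambled 2, 1.20 without scrambled 1 and 1.21 without sh830. Of 9 other V-ATPase subunits, 1 rose: Atp6v0d2, the V0 d subunit prominent in osteoclasts, had 8.73 and 10.7 CPM, against 1.20 and 2.96 CPM (2.33 ± 0.32, adjusted p = 0.015). Its broadly expressed paralogue among the 41 genes, Atp6v0d1, had 141 and 178 CPM, against 143 and 227 CPM (-0.19, adjusted p = 0.28).

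Of 23 sorting genes, 0 rose and 2 fell (median -0.076), against 6.06% of all genes that rose and 7.92% that fell. The share that fell is thus near that of all genes. Igf2r, the large mannose 6-phosphate receptor that carries hydrolases to lysosomes, had 315 and 270 CPM in the knockdown libraries, against 530 and 421 CPM in the scrambled ones (-0.69 ± 0.093, adjusted p = 0.014 in edgeR). Ap3d1, a subunit of the AP-3 adaptor, had 254 and 249 CPM, against 324 and 329 CPM (-0.38 ± 0.087, adjusted p = 0.043). All knockdown values of both genes were below all scrambled values. Of 25 genes of the TFEB family and of mTORC1 at lysosomes, 0 passed in edgeR. Tfe3 (0.24) and Mitf (0.31), paralogues of Tfeb, had adjusted p of 0.11 and 0.069.

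**Figure D5:**
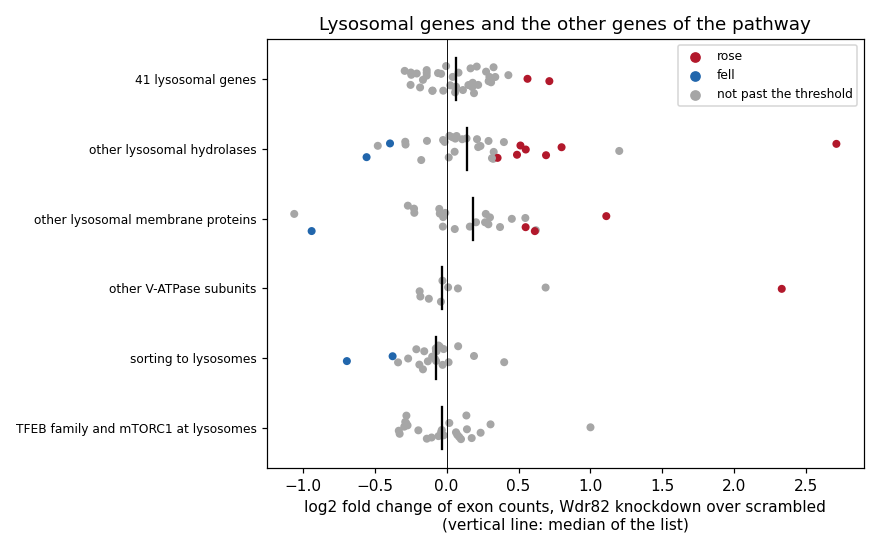
Exon log2 fold change, Wdr82 knockdown over scrambled, of the 41 lysosomal genes and of 5 lists of other genes of the pathway, 1 point per gene (red rose, blue fell, grey did not pass) with the list median as a vertical line. The 41 genes lie between -0.29 and 0.71, whereas Ctsk and Atp6v0d2 in the other lists exceed 2.

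Some markers of other cell types differed between the groups as well. The 8 osteoclast markers summed to 90.3 and 99.9 CPM in the knockdown libraries, against 34.5 and 27.6 CPM in the scrambled ones; 3 of 5 tested rose (Mmp9, Ctsk and Atp6v0d2), Acp5 had 0.040, and Calcr was at 0 in all 4 libraries. Ctsk and Atp6v0d2 are thus on both a pathway list and this marker list. The 8 fibroblast markers summed to 44.3 and 147 CPM, against 9.66 and 42.7 CPM, and 2 of 6 tested rose (Pdgfrb and Col1a1). Thy1, at 1 and 2 counts in the knockdown libraries and 0 in both scrambled ones, was too low to be tested. Pdgfrb alone had 42.4 and 37.3 CPM, against 8.64 and 9.58 CPM, most of the sh1137 and scrambled 1 sums. Col1a1 had 0.774 and 53.3 CPM, against 0.0979 and 9.26 CPM, and was thus low in both intron-rich libraries. Neutrophil, B cell, T cell, mast cell and dendritic cell markers summed to between 1.03 and 18.5 CPM per list in every library, with Pax5, Mcpt4, Tpsb2 and Ms4a2 at 0 in all 4. Of these lists, the T cell markers summed to 6.94 and 5.80 CPM, against 2.72 and 2.83 CPM, and the dendritic cell markers to 7.39 and 5.88 CPM, against 3.82 and 2.94 CPM. Most of each difference lay in a single gene. Lck had 3.60 and 4.03 CPM, against 0.783 and 1.35 CPM, and Xcr1 had 4.46 and 3.41 CPM, against 1.59 and 1.20 CPM. Cd3e, Cd3g and Clec9a had at most 4 counts in any library. Lck (1.87, adjusted p = 0.024 in edgeR) and Xcr1 (1.49, 0.029) rose, and Cd79b fell (-1.58, 0.028). The 10 macrophage markers had 0 rises and 2 falls (Cd68 and Fcgr1), and the part of these cell types in the lysosomal values was not tested.

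By promoter, the 13 genes with CACGTG had a median exon change of 0.082, ranging from -0.25 (Atp6v0b) to 0.71, with 2 past the threshold, Ctsl and Glb1. The 22 genes without it had a median of 0.14, ranging from -0.29 to 0.43, with 0 past the threshold. Of the genes with the 8-letter TCACGTGA shown above, Ctsd had 0.34, Gla 0.082, Mcoln1 0.059, Ctsa -0.099, Atp6v1a -0.14 and Atp6v0d1 -0.19. A match is a stretch of letters only, and its presence says nothing of binding.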

How the data were processed

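RNA was rRNA-depleted and made into strand-marked libraries, per the labels' protocols. Deposited files hold the authors' raw counts for exons, introns and regions listed apart from genes, without normalization. Tools named in the submitters' processing notes are SICER, Cuffdiff 2.1.1, Cufflinks 2.1.1 and TopHat 1.3.1, with mm9 as genome build; the counting tool and its use of strand are not given in the sources used here. Gene exon counts ran from 34787556 to 43372731 per library.

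Counts were fitted in edgeR 4.0.16 (R 4.3.3; filterByExpr filter, TMM factors, quasi-likelihood F-tests) over all features, with group and library terms and an adjusted p threshold of 0.05 (Benjamini-Hochberg). Exons of genes and regions were fitted together, introns apart, and intron against exon change as an interaction with a term for each library. Standard errors are the log2 fold change over the root of F. DESeq2 1.42.0, other filters, scalings and terms, and leaving out each library were alternatives. Simulated data were used to try out fits, but no outcome for the separate alternatives is given here. Whether calls of the size reported above hold was thus not shown by simulation. CPM values use TMM-scaled library sizes. With 2 libraries in each group, the smallest exact permutation p is 0.33. The members and lists were chosen with earlier results of these data known. Values per library are given for Wdr82, for members past a threshold and for the 2 members of each role with the smallest exon p; in the other lists, for up to 2 genes passed in each direction by smallest p. Promoter windows are from RefSeq, GRCm38.p6; 6 members had no window in that table.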

Additional observations from a re-analysis of the deposited data

How the results depend on the processing

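The count of members called in exons was 2 and became 0 with the group term alone, 0 with the crossed split (scrambled 1 with sh830), 0 in DESeq2 with the group term alone and 0 to 0 without 1 library, and 4 without scaling factors and 4 with at least 20 counts in every library. The count in introns was 1 and became 0, 0, 0 and 0 to 0 under the first 4 of these, 2 without scaling factors, 2 with at least 20 counts, 2 with RLE size factors, 3 without a filter and 3 with the exon TMM factors. The count for intron against exon change was 6 and became 0, 0, 0 and 0 to 0, 3 in DESeq2, 1 with 1 total per library, 7 with RLE size factors, 8 without scaling factors, 8 without a filter and 9 with at least 20 counts. Fits without 1 library use the group term alone, which passed 0 members with all 4 libraries too. The lone library left in a group is then assumed to vary like the others. The cause of these moves was not tested.

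The median exon change of 0.065 ranged from -0.082 (without scrambled 1) to 0.24 (without scrambled 2). Wdr82 at -1.91 kept its direction, with -1.89 under the group term alone (adjusted p = 0.44 in edgeR), -1.91 under the crossed split (0.12) and -2.28 to -1.58 without 1 library. Other values that changed sign did so only without 1 library. They ranged from -0.05 to 0.46 for Npc2, -0.13 to 0.75 for Cd63, -0.52 to 0.087 for Atp6v0b, -0.56 to 0.087 for Atp6v1c1, -0.26 to 0.64 for Atp6v1e1, -1.04 to 0.096 for Ctsl intron against exon, -0.12 to 1.21 for Slc36a1, -0.45 to 1.54 for the Atp6v0a1 end region and -0.42 to 1.41 for the Grn start region. Of the values for single genes and regions under all alternatives, 10 reversed, 352 kept their direction and side of the threshold, 10 newly passed and 175 no longer passed. DESeq2 with the group term alone and the values of regions, of pathway genes and of introns and intron against exon change of single members were added after seeing the data. No paired analysis was possible because the labels give the hairpin libraries no replicate number; the library term sets libraries together by intron share.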
